A study of Drosophila melanogaster with 6 samples.

Results

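The mitochondrial ribosomal protein genes of Drosophila melanogaster were compared between heads of young and aged adult flies. Members were the genes whose symbol begins with mRpL or mRpS followed by a digit and that had a probe set naming no other gene. There were 69 such genes of 11982 with a probe set of their own, 44 of the large subunit (mRpL) and 25 of the small subunit (mRpS), read from 71 of 18769 probe sets. Where a gene had more than 1 probe set, it is represented by the probe set whose mean over the 6 arrays was highest. Heads came from flies of a single genotype, P{GawB}elavC155 in strain background W*, taken at 2 days (young, 3 arrays) and at 25 days (aged, 3 arrays). P{GawB}elavC155 is a transposon inserted at elav, a gene of neurons, from where it expresses yeast GAL4, and the young flies carried it as well as the aged ones, so that no group is free of it. The flies were kept at 25°C, and their sex is not given in the sources used here. Expression was read from Affymetrix arrays as RMA values in log2 units, in which 1 unit is a 2-fold change.

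Mitochondria keep a ribosome of their own, descended from that of bacteria, which translates the few messenger RNAs of the mitochondrial genome into core subunits of the respiratory complexes and of ATP synthase. All proteins of this ribosome are encoded in the nucleus, made in the cytosol and imported. The large subunit holds the peptidyl transferase centre and the tunnel through which the new chain leaves, and the small subunit binds the messenger RNA and decodes it. Some of these proteins have bacterial counterparts, and others are found only in mitochondria. Neurons, photoreceptors and flight muscles depend heavily on respiration, and in flies, loss of function of the gene tko, for the protein of the small subunit's decoding site, makes animals sensitive to mechanical shock.

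Whether the 3 arrays at each age were made from different fly collections is not stated, so p-values reflect the spread among these arrays alone, and that spread may be technical. Array medians lay between 4.85 and 4.93. Pearson's r across all probe sets was 0.991 to 0.998 between arrays of the same age and 0.984 to 0.9895 between arrays of different ages. All measured markers of neurons (4), glia (4), photoreceptors (3) and fat body (5) lay above the median of all values (4.90), and the 3 testis and 2 ovary markers lay below it. The muscle markers TpnC4 and fln and the gut marker Jon99Ci lay below it too. Mean marker levels spread more among young than among aged arrays for fat body (9.13 to 11.31 against 9.36 to 9.76). The same held for muscle (5.94 to 7.45 against 5.02 to 5.42), gut (5.51 to 6.56 against 5.47 to 5.51), testis (3.09 to 4.52 against 3.02 to 3.20) and ovary. It did not hold for neurons, glia, photoreceptors and haemocytes. Between the ages 2 of 4 neuronal, 2 of 4 glial, 1 of 3 photoreceptor and 2 of 4 muscle markers were lower in aged heads, and 3 of 3 haemocyte markers were higher, with mean levels of 7.93 to 7.96 on the young and 8.50 to 8.77 on the aged arrays. By the same limma test, used below, 8.7% of all probe sets were lower and 13% higher. From young to aged heads the marker medians went from 10.05 to 10.16 in neurons and from 13.37 to 13.39 in photoreceptors. They went from 10.23 to 9.83 in glia and from 6.36 to 4.84 in muscle. In whole heads, fewer cells of a type and less RNA per cell cannot be told apart. The 3' minus 5' difference of control probe sets was lower on every aged array than on every young array, by 0.38 in 6 fly control pairs and by 0.28 in 17 spike-in pairs (two-sided exact permutation test, p = 0.1, the smallest that 3 against 3 arrays allow). It cannot be told apart from age, and its part in the gene differences, as that of the cell type markers, was not tested.

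Aged heads had lower levels of 8 mitochondrial ribosomal protein genes, 6 of the large and 2 of the small subunit, and 0 of the 69 passed the test as higher. The remaining 61 did not pass. The falls were small, from 1.18-fold for mRpL24 to 1.41-fold for mRpS9 and mRpL55. The 8 genes are 11.6% of the members, where 8.7% of all probe sets, and 14.8% of the 4937 genes whose levels lay within the members' range, were lower at 25 days (limma test with adjustment after Benjamini and Hochberg over all probe sets, threshold 0.05). The share of members that fell thus lay between these backgrounds. As higher in aged heads, 13% of all probe sets and 22.4% of the genes at the members' levels passed. In either direction 37.2% of those genes and 21.7% of all probe sets passed, and 59.9% of these calls were higher in aged heads, or 48.8% once the arrays were centred on their medians. Without adjustment, 21 members had a limma p under 0.05 as lower and 0 as higher. Of the 4937 genes at the members' levels, 1043 had such a p as lower and 1593 as higher. Of all 18769 probe sets, 2999 did as lower and 3622 as higher. The median difference of the members was -0.09 on the log2 scale, a 1.06-fold lower level, beside -0.02 over all probe sets and 0.06 over the genes at the same levels. Differences lay below 0 for 48 members (69.6%) and above 0 for 21, where they lay below 0 for 53.9% of all probe sets and for 41% of the genes at the same levels.

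**Figure D1:**
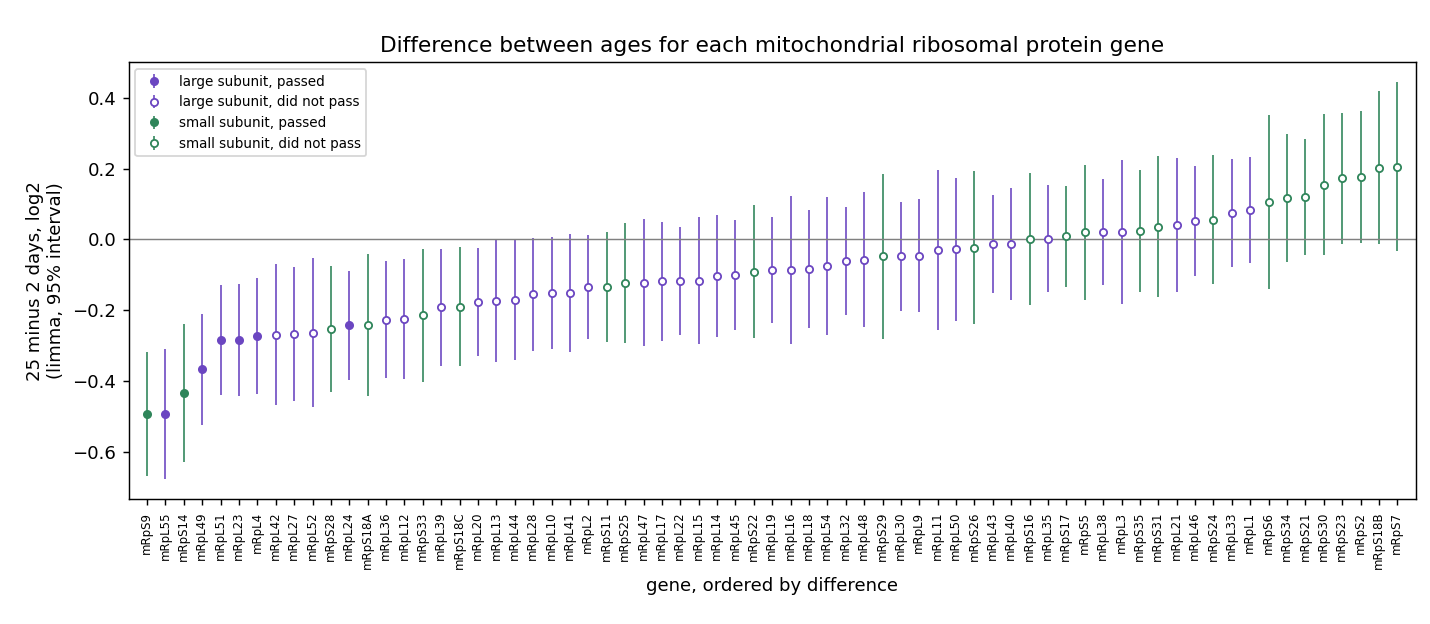
Difference between 25-day and 2-day heads (y axis, log2, limma estimate with its 95% interval) for each of the 69 genes, ordered by difference on the x axis and coloured by subunit, with filled points for the 8 that passed. All filled points lie below 0, between -0.49 and -0.24, and no estimate is 0.5 or more from 0 in size.

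In the small subunit the larger fall was that of mRpS9 (CG2957), for a protein of the small subunit's head whose bacterial counterpart reaches the transfer RNA in the peptidyl site. Its log2 values were 9.72, 9.58 and 9.78 on the young arrays and 9.18, 9.18 and 9.24 on the aged arrays. The young arrays all lay above the aged ones, by more than the spread within either age, and the difference was -0.49 ± 0.07 (difference ± SE, n = 3 arrays per age, limma adjusted p = 0.00439). The other small subunit gene that fell, mRpS14 (CG32531), also encodes a protein of the head. It stood at 8.30, 8.37 and 8.45 on the young and at 7.85, 7.90 and 8.08 on the aged arrays. Its difference was -0.43 ± 0.08 (adjusted p = 0.0108), and the ages did not overlap.

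Of the 6 large subunit genes that fell, 3 encode proteins found only in mitochondrial ribosomes. The first of them, mRpL55 (CG14283), read 8.89, 9.10 and 9.08 on the young and 8.49, 8.53 and 8.57 on the aged arrays. It differed by -0.49 ± 0.08 (adjusted p = 0.00529), with all 3 aged arrays below all 3 young ones. The values of mRpL49 (CG4647) were 8.81, 8.92 and 8.94 on the young arrays against 8.53, 8.48 and 8.55 on the aged arrays. That is a fall by 0.37 ± 0.07 (adjusted p = 0.00883), and again the ages were apart. For mRpL51 (CG13098) the young arrays read 8.46, 8.60 and 8.54 and the aged ones 8.24, 8.26 and 8.25, a narrow spread in aged heads, and the difference was -0.28 ± 0.07 (adjusted p = 0.0213).

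The other 3 large subunit genes that fell encode proteins of the exit tunnel. In bacteria, the counterparts of mRpL23 and mRpL24 sit at the rim where the new chain emerges, and that of mRpL4 lines the tunnel's narrow part. The young values of mRpL23 (CG1320) were 9.06, 9.06 and 9.14, and its aged values were 8.73, 8.85 and 8.83. It fell by 0.28 ± 0.07 (adjusted p = 0.0231) with no overlap between the ages. The array values of mRpL4 (CG5818) were 8.37, 8.40 and 8.47 in young heads against 8.09, 8.10 and 8.22 in aged heads, a difference of -0.27 ± 0.07 (adjusted p = 0.0303). Those of mRpL24 (CG8849) were 8.83, 8.75 and 8.89 in young heads and 8.61, 8.56 and 8.57 in aged heads, and the difference of -0.24 ± 0.07 had the largest adjusted p of the 8 (0.0367). The ages were apart for both genes.

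**Figure D2:**
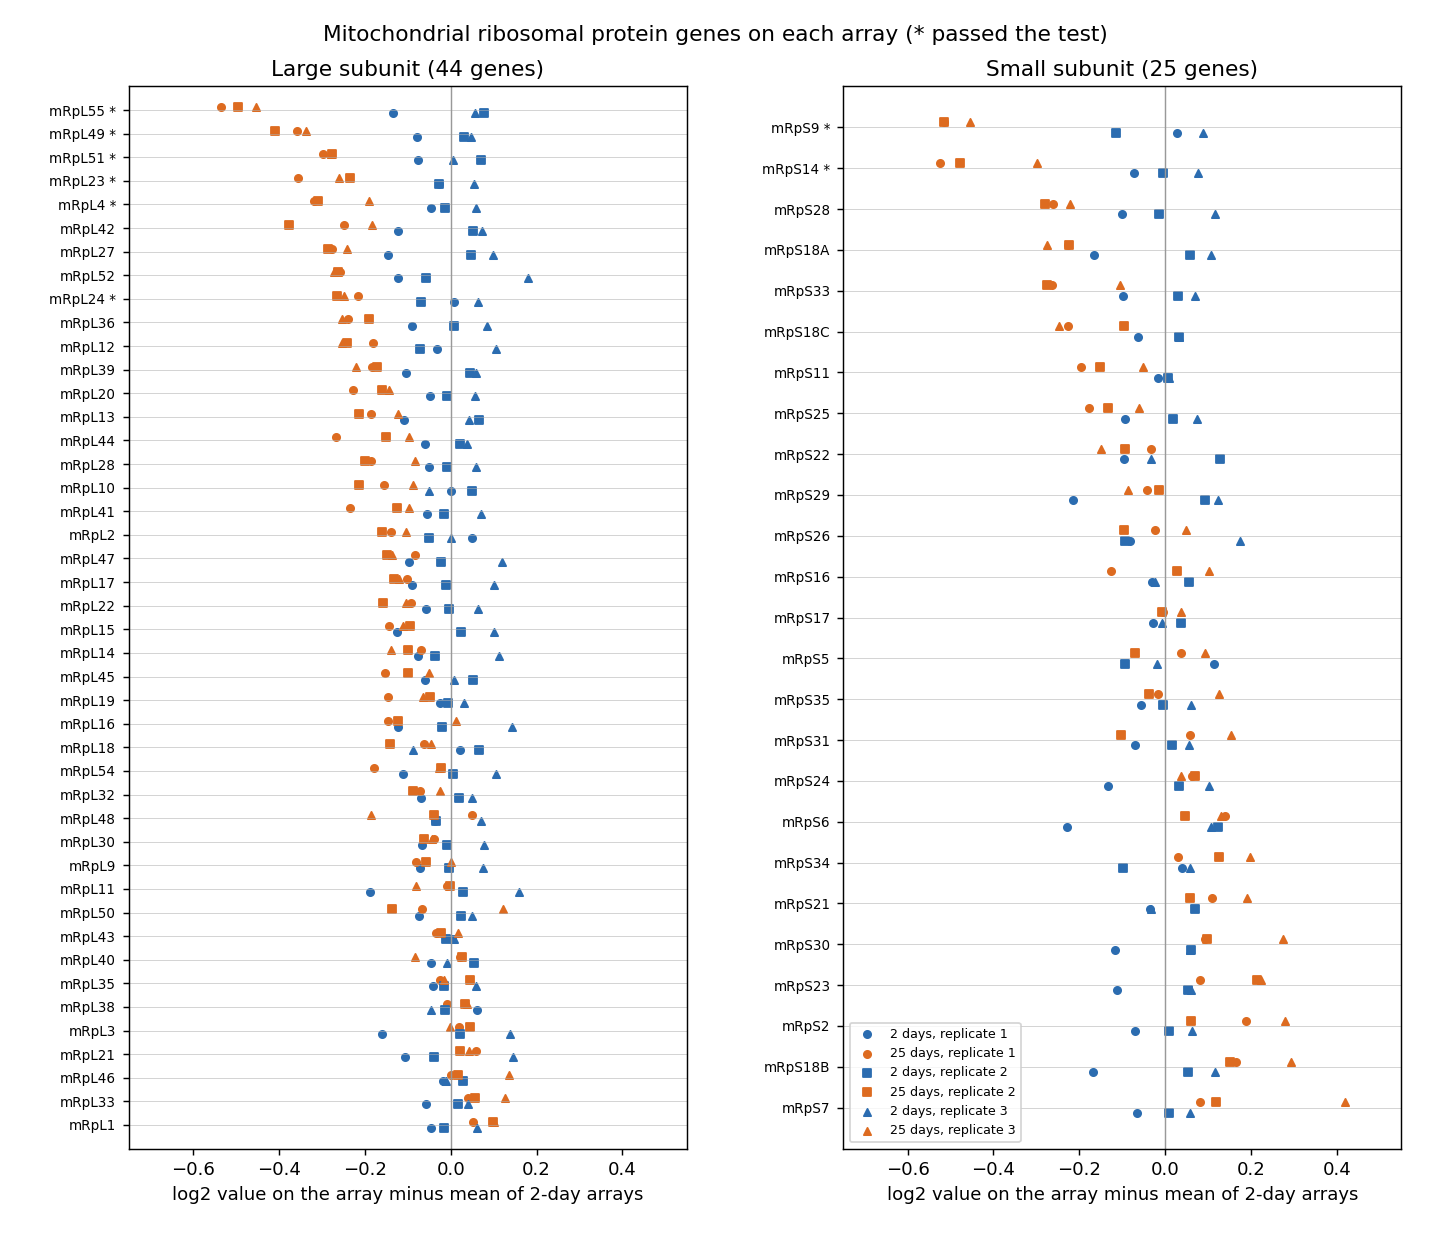
Log2 value of each gene on each array minus its mean over the 3 young arrays (x axis), with large subunit genes left and small subunit genes right, ordered by difference; blue marks 2-day and orange 25-day arrays, and a star marks the 8 genes that passed. All aged points lie left of all young points in 22 of 44 large subunit rows and in 7 of 25 small subunit rows, all aged points lie right in 4 small subunit rows, and young replicate 1 (blue circles) is the leftmost blue point in 58 of 69 rows.

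Which genes passed depended on the arrays and the setting. Without 1 array at a time, 4 to 14 members fell and 0 rose. The count was 14 without young replicate 1 (20.3%, beside 8.8% of all probe sets) and 6 without young replicate 2 (8.7%, beside 8.8%). Without aged replicate 3 it was 5 (7.2%, beside 6.0%). It was 4 (5.8%) without young replicate 3, without aged replicate 1 or without aged replicate 2, beside 5.9%, 4.9% and 5.2% of all probe sets. Without young replicate 2 and aged replicate 3 together, a choice made after seeing the data, 3 members fell (4.3%, beside 5.5%). These 3, mRpS9, mRpL55 and mRpS14, passed in all 6 fits that leave out 1 array and in the 9 other refits. The gene mRpL49 passed in all of these but the one without both arrays (adjusted p = 0.0519). The other 4 lost their calls with the replicate number as a block, without both arrays and when most single arrays were left out. Of the 6 fits without 1 array, mRpL51 and mRpL24 each passed in 1, and mRpL23 and mRpL4 each in 2. In the fits without 1 array they had adjusted p up to 0.0839 for mRpL51, 0.0971 for mRpL23, 0.115 for mRpL4 and 0.120 for mRpL24. Other settings gave larger counts. With only probe sets at or above the median level in the fit, 19 of 69 members fell (27.5%, beside 17.9% of those probe sets). With quantile normalization or array weights, 18 fell (26.1%, beside 9.46% and 11.1% of all probe sets).

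**Figure D3:**
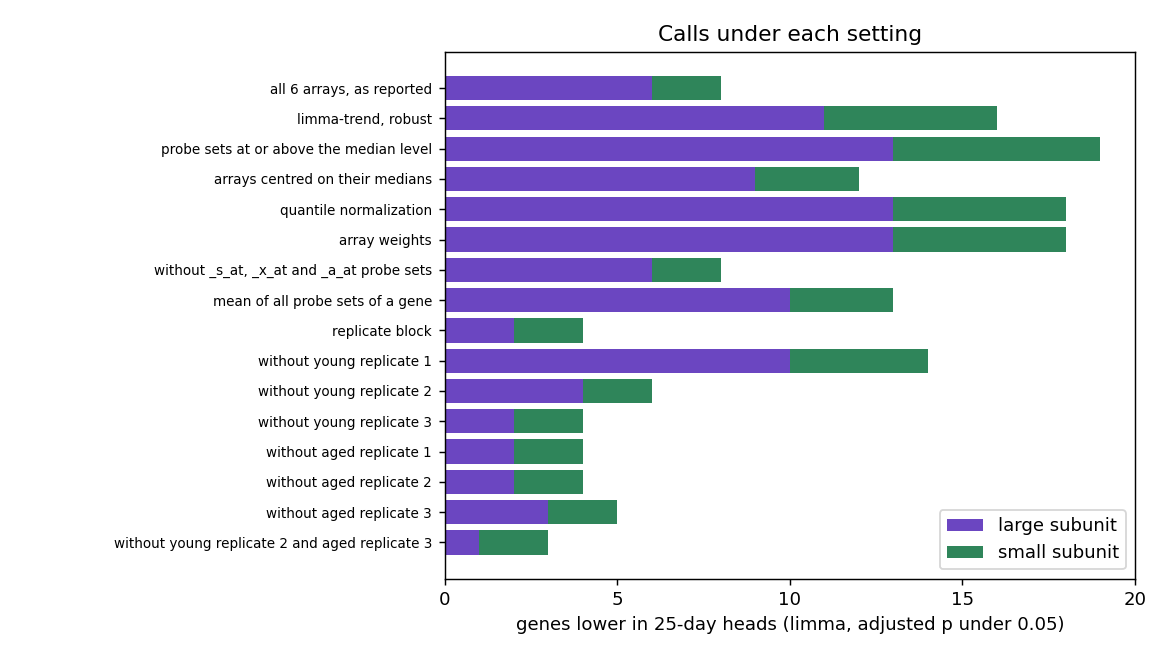
Number of mitochondrial ribosomal protein genes lower in 25-day heads (x axis, limma, adjusted p under 0.05) with all 6 arrays and under the other settings (y axis), split into large and small subunit. The total runs from 3 to 19, and the small subunit gives 2 to 6 of them.

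Several members lay just outside the threshold. Adjusted p lay between 0.05 and 0.1 for 10 members, 7 of the large and 3 of the small subunit, and the difference of all 10 was below 0. The closest was mRpS28 (adjusted p = 0.0515), with 8.30, 8.39 and 8.52 on the young and 8.14, 8.12 and 8.18 on the aged arrays and a difference of -0.25 ± 0.08. It was followed by mRpL27 (-0.27 ± 0.08, adjusted p = 0.0533), whose bacterial counterpart reaches into the peptidyl transferase centre, and by mRpL36 (-0.23 ± 0.07, adjusted p = 0.0583). Also in this range were mRpL42 (-0.27), mRpL52 (-0.26), mRpS18A (-0.24), mRpL12 (-0.23), mRpS33 (-0.21), mRpL39 (-0.19) and mRpL20 (-0.18). The protein of mRpL12 forms the stalk that recruits translation factors. These 10 genes were named after their values were seen, and for each of them the ages did not overlap.

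Of 44 large subunit genes 6 fell (13.6%), and of 25 small subunit genes 2 fell (8.0%), both shares below the 14.8% of genes at the members' levels. These shares are near the background and are given as counts only. The median difference was -0.12 for the large subunit (quartiles -0.20 and -0.04) and 0.0084 for the small subunit (quartiles -0.13 and 0.12). Differences lay below 0 for 37 of 44 large subunit genes and for 11 of 25 small subunit genes. At an unadjusted limma p under 0.05, 15 of 44 large and 6 of 25 small subunit genes were lower, beside 1043 of the 4937 genes at the members' levels. Of the 10 genes with the lowest differences 8 belonged to the large subunit, and of the 10 with the highest differences 8 belonged to the small subunit. The difference between the subunits itself was not tested, since the genes share their arrays and are not replicates.

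On single arrays the subunits were compared by their mean deviations. With each gene set to its mean over all 6 arrays, the large subunit's mean deviation minus the small subunit's was 0.06, 0.03 and 0.05 on the young arrays and -0.03, -0.02 and -0.08 on the aged arrays. The ages did not overlap in this within-array quantity, which any constant added to an array leaves as it is. The median of the large subunit ran from -0.16 to -0.08 under the 16 alternatives and was below that of the small subunit in each of them. The small subunit's median lay on either side of 0, from -0.04 to 0.02, and below it under 6 of these 16, among them centring arrays on their medians (-0.04) and quantile normalization (-0.03). In mammals, the proteins named S30 and S18A sit in the large subunit despite their names. With mRpS30 (0.15) and mRpS18A (-0.24) counted there, the medians stayed at -0.12 and 0.0084 to the digits given.

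**Figure D4:**
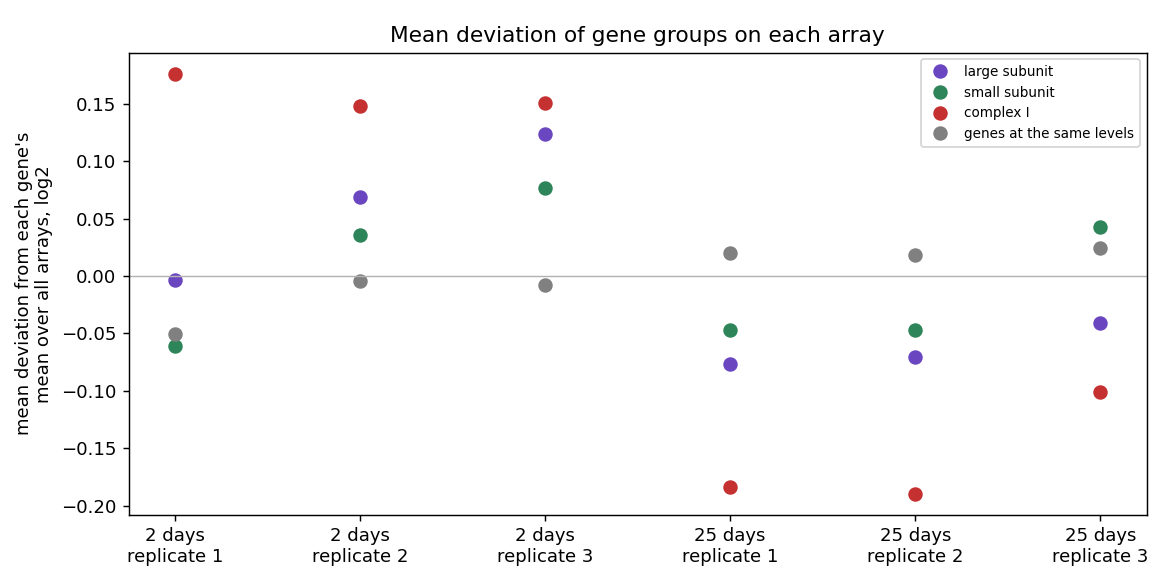
Mean deviation of gene groups from each gene's mean over all arrays (y axis, log2) on each of the 6 arrays (x axis), for the large subunit, the small subunit, the complex I genes and all genes within the members' range of levels. Young replicate 1 is the lowest young array for both subunits (-0.0034 and -0.06), and the large subunit lies above the small one on all young arrays and below it on all aged arrays.

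The young arrays were less alike than the aged ones for these genes. Young replicate 1 was the lowest young array for 58 of 69 members (84.1%), beside 52.9% of the genes at the members' levels, and young replicate 3 was the highest for 52 (75.4%), beside 38.2%. The median SD over members was 0.07 among young and 0.05 among aged arrays, and 46 of 69 genes had the larger SD among young arrays. The mean deviation of all members was -0.02, 0.06 and 0.11 on the young and -0.07, -0.06 and -0.01 on the aged arrays. Young replicate 1 thus lay nearer to aged replicate 3 than to the other young arrays. Leaving it out gave a median difference of -0.13, and leaving out young replicate 3 gave -0.06. The mean levels of fat body, muscle, gut and testis markers also spread more among the young arrays, as given above. Whether that bears on the members was not tested.

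For 4 genes the ages were apart in the other direction, with all aged arrays above all young arrays, and 0 of them passed. They were chosen for this pattern after their values were seen, and all belong to the small subunit. The values of mRpS7, for a protein of the head, were 8.94, 9.01 and 9.06 on the young and 9.09, 9.12 and 9.42 on the aged arrays. Its difference, 0.21 ± 0.10, had the highest value of all members and an adjusted p of 0.196, and aged replicate 3 lay far above the other arrays. For mRpS18B, read by a probe set of a kind that can be shared between genes, the difference was 0.20 ± 0.09 (adjusted p = 0.164). For mRpS23 it was 0.17 ± 0.08 (adjusted p = 0.167) and for mRpS30 0.15 ± 0.09 (adjusted p = 0.242). In all, the ages did not overlap for 29 members as lower and for 4 as higher in aged heads (42.0% and 5.8%), beside 24.7% and 38.2% of the genes at the members' levels or 62.9% of these genes in either direction. Over all probe sets the shares were 19.2% and 21.7%, or 40.8% in either direction. In the large subunit these counts were 22 and 0, and in the small subunit 7 and 4.

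For most members the arrays bounded the change closely. The 95% interval of the difference lay within 0.5 of 0 in both directions for 65 of 69 genes and within 0.25 for 23, and for 0 genes did it reach a 2-fold change. The SE was 0.06 to 0.10. The 5 genes with the smallest differences were mRpS16, mRpL35 and mRpS17, which have bacterial counterparts, and mRpL40 and mRpL43, which are found only in mitochondria. The values of mRpS17, whose protein binds ribosomal RNA in the body of the small subunit, were 7.92, 7.99 and 7.94 on the young and 7.94, 7.94 and 7.99 on the aged arrays, fully overlapping, with a 95% interval of -0.13 to 0.15. For mRpL43 the interval was -0.15 to 0.13, for mRpL35 -0.15 to 0.15, for mRpL40 -0.17 to 0.15 and for mRpS16 -0.18 to 0.19. These intervals exclude a change of the size seen in mRpS9 (-0.49).

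All members lay well above the median of all values, with means over the 6 arrays from 6.94 for mRpS23 to 10.8 for mRpS5, and no single value of theirs was under 6.75. Probe sets differ in how brightly they report, and their levels do not rank the genes. The 5 with the highest mean level were mRpS5, mRpL28, mRpL33, mRpS9 and mRpS21. Apart from mRpS9, none of them passed. The array values of mRpS5 (CG40049), whose bacterial counterpart lines the entry of the messenger RNA, were 10.93, 10.72 and 10.80 in young and 10.85, 10.74 and 10.91 in aged heads, with a difference of 0.02 ± 0.08. For mRpL28 it was -0.16 ± 0.07 (adjusted p = 0.151), for mRpL33 0.07 ± 0.06 and for mRpS21 0.12 ± 0.07 (adjusted p = 0.269). Across the 69 genes, level and difference had a Pearson's r of -0.20 and a Spearman's rho of -0.27, which describe genes that share their arrays.

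Genes were also split by the descent of their proteins. Of 43 genes with a bacterial counterpart 5 fell (11.6%), and of 26 genes for proteins found only in mitochondria 3 fell (11.5%), with medians of -0.10 and -0.07. Within the large subunit the medians were -0.12 (28 genes) and -0.13 (16 genes), and within the small subunit 0.0084 (15 genes) and 0.000083 (10 genes). By place in the ribosome, the listed genes of the tunnel exit were mRpL17, mRpL22, mRpL23, mRpL24, mRpL45 and mRpL47. Their differences lay below 0, from -0.28 to -0.10, as did those of 84.1% of all large subunit genes. Of these genes, mRpL23 and mRpL24 fell and the others did not pass. The list as drawn up also held mRpL19 (-0.09), which did not pass and is not counted in this range. For mRpL47 the other probe set lay above 0 (0.06). The list is not complete and was drawn up after the values were seen. The protein of mRpL45 anchors the ribosome at the inner membrane in mammals, and its gene differed by -0.10 ± 0.07. Of 5 genes of the peptidyl transferase region and core (mRpL2, mRpL3, mRpL4, mRpL16 and mRpL27), mRpL4 fell, and the median was -0.13. Of 4 genes of the stalks (mRpL1, mRpL10, mRpL11 and mRpL12) 0 fell (1 at an unadjusted limma p under 0.05, mRpL12), with a median of -0.09.

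In the small subunit, 4 genes listed for the head, mRpS7, mRpS9, mRpS14 and mRpS29, had differences from -0.49 to 0.21. The list is not complete. It leaves out mRpS24 (0.06), mRpS31 (0.04), mRpS33 (-0.21) and mRpS35 (0.02), none of which passed. While mRpS9 and mRpS14 fell, mRpS29, whose mammalian counterpart DAP3 binds GTP, stood at -0.05 ± 0.10 and mRpS7 at 0.21. Of 10 genes listed for the platform and body (mRpS2, mRpS5, mRpS6, mRpS11, mRpS16, mRpS17, mRpS18A, mRpS18B, mRpS18C and mRpS21) 0 passed (2 at an unadjusted limma p under 0.05, mRpS18A and mRpS18C). Their median was 0.01. Since the mammalian S18A protein sits in the large subunit, mRpS18A is in this list by its name only. The 3 genes of the S18 family, which all descend from a single bacterial protein, went apart, with -0.24 ± 0.09 for mRpS18A, -0.19 ± 0.07 for mRpS18C and 0.20 ± 0.09 for mRpS18B, and none passed. The values of mRpS18A were 7.97, 8.20 and 8.25 in young and 7.91, 7.92 and 7.86 in aged heads. Those of mRpS18B were 7.66, 7.88 and 7.95 in young and 7.995, 7.981 and 8.124 in aged heads, so that the ages were separated in opposite directions. These groups by place were drawn up after the values were seen.

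A pair of members had a further probe set, and in both it had the other sign. The main probe set of mRpS11 differed by -0.13 ± 0.07 and the other by 0.0018 ± 0.08. For mRpL47 the values were -0.12 ± 0.08 and 0.06 ± 0.08. None of the 4 passed. The genes tko (CG7925) and bonsai (CG4207) encode small subunit proteins S12 and S15 under other symbols. The log2 values of tko were 8.62, 8.70 and 8.72 in young and 8.77, 8.86 and 8.96 in aged heads, a difference of 0.19 ± 0.07 that did not pass (adjusted p = 0.119) although the ages did not overlap. For bonsai the difference was -0.06 ± 0.07 (adjusted p = 0.630). With both included, 8 of 71 genes fell and the median was -0.09.

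Genes of the factors that work with this ribosome passed in both directions. Of 11 measured translation factor genes 3 fell, 2 rose and 6 did not pass, with a median of -0.17. In either direction 45.5% of them passed, beside 26.5% of all genes and 21.7% of all probe sets. The gene mRRF1 (CG4447), for the factor that recycles ribosomes after termination, read 7.11, 7.11 and 7.18 in young and 6.73, 6.72 and 6.79 in aged heads, and fell by 0.39 ± 0.06 (adjusted p = 0.00585). The elongation factor gene mEFTu1 (CG6050), whose protein brings transfer RNAs to the ribosome, fell by 0.35 ± 0.07 from 9.08, 9.22 and 9.18 to 8.77, 8.76 and 8.91 (adjusted p = 0.0156). The translocation factor gene mEFG1 fell by 0.34 ± 0.10 with an adjusted p at the threshold (0.0490), and of the 6 fits without 1 array it passed only in that without young replicate 1 (adjusted p up to 0.153 in the others). The initiation factor gene mIF3 rose by 0.59 ± 0.13 from a young level below the median of all values (4.71), and the release factor gene mRF1 rose by 0.34 ± 0.08 (adjusted p = 0.0189). Of the same 6 fits mRF1 passed in 4 and did not without aged replicate 2 or 3 (adjusted p up to 0.0753). Both mEFG1 and mRF1 were named because 5 or fewer passed in their direction. Of the 6 fits without 1 array, mEFTu1 passed in 3 and mIF3 in 4 (adjusted p up to 0.0685 and 0.0643).

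Of 14 genes for mitochondrial aminoacyl-tRNA synthetases, which load the transfer RNAs, 2 fell, 1 rose and 11 did not pass, with a median of 0.05. The share that passed (21.4%) lay near the 21.7% of all probe sets and is given as a count only. The gene ValRS-m fell by 0.49 ± 0.07 (adjusted p = 0.0033) and LeuRS-m by 0.31 ± 0.08, while MetRS-m rose by 0.26 ± 0.07 and lost its call whichever single array was left out (adjusted p up to 0.147). Of 11 genes of mitochondrial transcription, RNA handling and genome upkeep 0 fell, 2 rose and 9 did not pass, with a median of 0.09 (at an unadjusted limma p under 0.05, 0 were lower and 3 higher). Those that rose are 18.2% of the list, beside 13% of all probe sets and 15.8% of all genes. The 2 that rose were RNaseZ (0.35 ± 0.08), for the enzyme that trims the ends of transfer RNA precursors, and PolG1 (0.33 ± 0.08), for the catalytic subunit of the mitochondrial DNA polymerase, whose levels of 4.43 and 4.77 lay below the median of all values. Both passed in only 2 of the 6 fits that leave out 1 array (adjusted p up to 0.0885 and 0.102). LeuRS-m passed only without young replicate 1 among the fits that leave out 1 array (adjusted p up to 0.105 in the others). Genes of the mitochondrial genome itself had no probe set with a symbol of that kind here.

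The nuclear genes of the respiratory complexes, whose mitochondrially made partners this ribosome supplies, had medians farther from 0. Of 32 complex I genes 22 fell (68.75%), 0 rose and 10 did not pass, with a median of -0.34. Of 39 genes of complexes III to V 27 fell (69.2%), 1 rose and 11 did not pass, with a median of -0.35. Of all probe sets 8.7% fell, and of all genes 10.7%. Among genes at or above the median level the counts were 22 of 26 and 24 of 26, with medians of -0.36 and -0.43. Of all genes at or above that level 14.1% fell. The lists' median levels were 10.8 and 11.6, beside 8.22 for the members. The genes at the members' levels are therefore not a background of like level. For the members the median was -0.09 and 8 of 69 fell on the same arrays. No test of this difference between lists was made. The largest complex I changes were those of ND-B18 (-0.64 ± 0.06), ND-19 (-0.63 ± 0.07) and ND-42 (-0.59 ± 0.07). In complexes III to V they were those of COX7AL2 (-1.30 ± 0.23), UQCR-11 (0.89 ± 0.07) and UQCR-11L (-0.80 ± 0.19). The mean of UQCR-11 in young heads (4.93) lay close to the median of all values (4.90). UQCR-11L ended below that median and did not pass when young replicate 3 or either of aged replicates 2 and 3 was omitted (adjusted p up to 0.0802). Young replicate 1 was the lowest young array for 11 of 32 complex I genes, where it was for 58 of 69 members.

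Of 41 measured cytosolic ribosomal protein genes 0 fell, 11 rose (26.8%) and 30 did not pass, with a median of 0.16 and 7 differences below 0. The 22.4% of genes at the members' levels that rose is not a background of like level. The list's median level was 12.7, above the highest mean of any member (10.8). Of the 34 list genes at or above the median of all values 11 rose (32.4%), with 31 differences above 0 and 3 below. For 30 of these 34 the ages did not overlap as higher, and for 3 as lower. Without adjustment, 2 of all 41 had a limma p under 0.05 as lower and 23 as higher. The largest rises were those of RpS5b (0.80 ± 0.08, from a young level below the median of all values), RpLP0-like (0.52 ± 0.11), whose symbol the list's pattern takes although it is only similar to a ribosomal protein, and RpS7 (0.47 ± 0.06). The pattern also takes other symbols ending in -like. Of these RpL24-like is among the 11 that rose (0.37 ± 0.08), and RpL7-like, RpL22-like and RpS28-like did not pass. The sign of RpS7 turned to -0.27 when probe sets whose names end in _s_at, _x_at or _a_at were left out, since another probe set then stood for it. For RpLP0-like the call was lost when either aged replicate 2 or 3 was omitted, with an adjusted p of up to 0.0567. The log2 values of RpS7 were 12.51, 12.47 and 12.51 in young and 12.98, 12.97 and 12.95 in aged heads. The mitochondrial gene mRpS7 is another gene, with its own values given above.

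**Figure D5:**
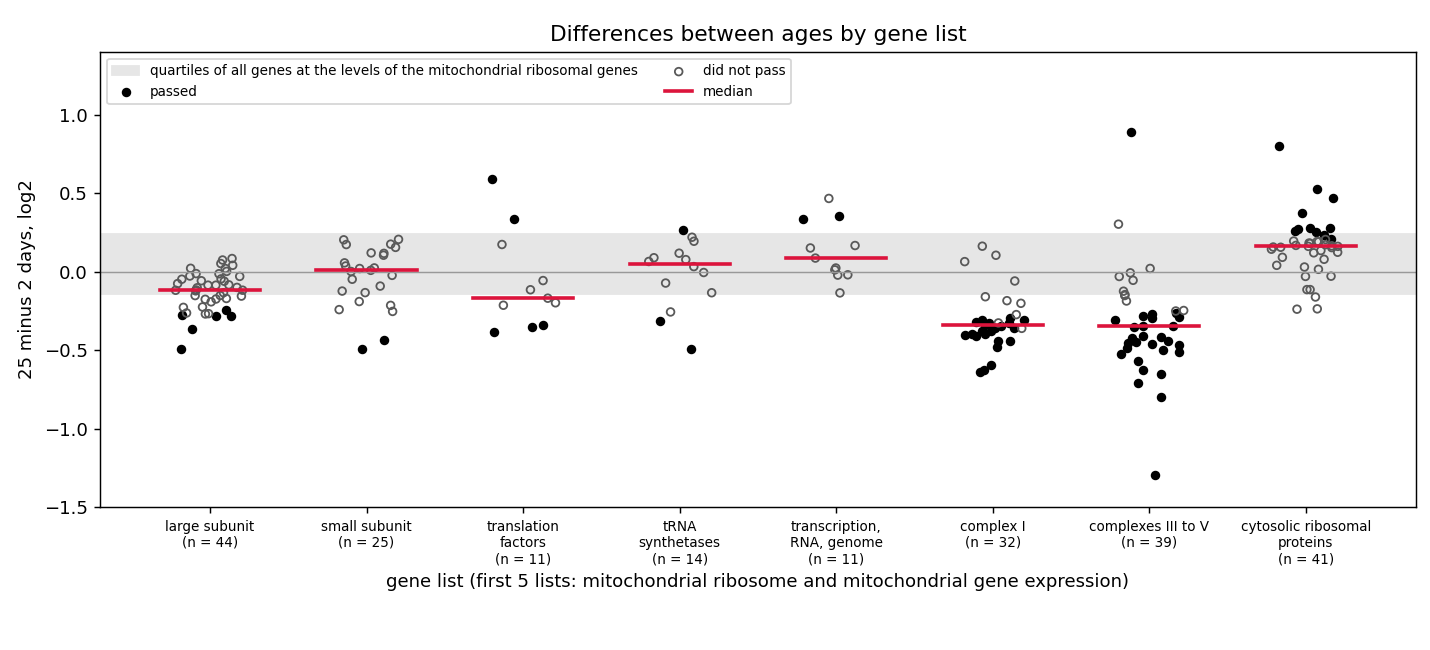
Difference between 25-day and 2-day heads (y axis, log2) for each gene of the mitochondrial ribosome's subunits, of the lists of mitochondrial gene expression, of the respiratory complexes and of the cytosolic ribosome (x axis); filled points passed, red lines are medians, and the grey band runs from the lower to the upper quartile of all genes at the members' levels. The medians are -0.12 and 0.0084 for the large and small subunit, -0.34 and -0.35 for the respiratory complexes and 0.16 for cytosolic ribosomal proteins.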

How the data were processed

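The deposited values are log2 expression per probe set, made by the authors with RMA per the submitters' processing notes, which also list limma but give no version or setting. RMA adjusts for background, brings all arrays to the same distribution and combines the probes of a set, so a change in total messenger RNA per head would not show. The 183 control probe sets stayed out of the tests. Gene symbols come from the probe table of the platform, and all 69 members matched RefSeq by gene identifier with 0 symbols changed. Of 73 genes with such symbols in RefSeq, 4 had no probe set of their own, and 2 probe sets that join such a symbol with another gene were left out.

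The test of age was limma's (version 3.58.1, run in R 4.3.3) with lmFit and eBayes on all 6 arrays without covariates. Benjamini-Hochberg adjustment covered 18769 probe sets, and calls were made at 0.05. Intervals are limma's at 95%. Lists were described by counts and medians, with no test of a list. On simulated arrays, 50% of 100 changes of size 0.5 and 90% of 100 changes of size 1 were called, and 4 of 144 calls were false. The changes were placed in probe sets of all levels, so these shares are not those of the members. The members and lists were chosen with earlier results of these data known. Named were the 10 members with the largest differences among those that passed with the ages apart (8 did), the 5 highest in level, the 5 with the smallest differences, members whose probe sets disagree in sign, tko and bonsai, and up to 3 of each other list. Others named were chosen after their values were seen. No promoter or protein sequence was used here, so the planned count of promoter motifs was not made. The alternatives were another variance model, a level filter, centring, quantile normalization, array weights, other probe set rules, the replicate number as a block, and leaving arrays out. The number of arrays limits the precision.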

Additional observations from a re-analysis of the deposited data

How the results depend on the processing

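In all alternatives run, 0 members rose and the median difference of the members stayed between -0.13 and -0.06. The count of members that fell was 8, with 6 of the large and 2 of the small subunit. With an intensity trend and robust variance in limma it was 16 (11 and 5), or 23.2% beside 10.2% of all probe sets. It was 19 (13 and 6) with only probe sets at or above the median level, and 18 (13 and 5) with quantile normalization or with array weights. Centring the arrays on their medians gave 12 (17.4%, beside 10.4% of all probe sets). The mean of all probe sets of a gene gave 13 (18.8%, beside 11.6% of all genes), 10 of them of the large subunit. Without 1 array the counts ran from 4 to 14 for all members, from 2 to 10 for the large and from 2 to 4 for the small subunit. Without young replicate 2 and aged replicate 3, chosen after seeing the data, 3 fell (1 large). With the replicate number as a block 4 fell (2 large), or 5.8% beside 7.0% of all probe sets. Deviations of same-numbered arrays correlated at 0.10, -0.02 and -0.06, so the numbers were not taken to pair the arrays. The causes of these shifts were not tested. Of the alternatives for named genes 465 kept direction and side of the threshold, 72 lost the call and 27 changed sign. Under centring the values were -0.0236 for mRpS5, -0.0425 for mRpS16, -0.0419 for mRpL35 and -0.0352 for mRpS17. Under quantile normalization they were -0.0412 for mRpS16, -0.0378 for mRpL35 and -0.0300 for mRpS17, and under array weights -0.0240 for mRpS16 and -0.0189 for mRpL35. Without probe sets whose names end in _s_at, _x_at or _a_at, mRpS11 was at 0.0018 and RpS7 at -0.269 (adjusted p = 0.225). Each was then read from another probe set of the gene. The main probe set of mRpS11 ends in _a_at and that of RpS7 in _s_at. Without young replicate 2 and aged replicate 3, mRpS5 was at -0.0626, mRpS16 at -0.0221 and mRpL40 at 0.0504. Without 1 array the ranges were -0.0264 to 0.0762 for mRpS5, -0.0495 to 0.0652 for mRpS16, -0.0204 to 0.0311 for mRpL35, -0.0061 to 0.0262 for mRpS17 and -0.0350 to 0.0233 for mRpL40. The planned count of promoter motifs was not run, since no promoter sequence was used here. In the simulation with 3 arrays an age, changes of 0.5 were recovered for 50% of the changed probe sets. Those were drawn from probe sets of all levels, and the simulation gave 144 calls, beside 4071 in the data. The 50% is therefore not the share expected for the members, whose median SE was 0.07.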
